A study of Rattus norvegicus with 24 samples.

Results

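This report describes 45 rat genes of the cell cycle and DNA replication in livers rebuilt from a decellularized scaffold. The genes were taken from a list of symbols, and a gene was measured where the platform annotation gave its symbol to a probe. Of the 45 genes, 38 had a named probe and 34 of those were bright enough to be tested, out of 8825 genes tested in all. Genes with no named probe were Ccnd3, Cdk2, Top2a, Mki67, Birc5, Tk1 and Rrm1, so the usual proliferation markers Mki67 and Top2a were not analysed here. Probes for Ccnd2, Ccnb1, Bub1b and Cdkn2c were too dim to keep.

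The constructs were rat livers stripped of their own cells, refilled with Sprague Dawley rat liver cells from a collagenase digest, and perfused in serum medium with insulin and dexamethasone. RNA was taken after 2 days from 4 constructs, after 15 days from 4 others and after 28 days from 3 others. The comparison samples were freshly isolated hepatocytes (n = 4) and cadaveric rat liver (n = 4). No group carried a gene edit or a further treatment. The digest had been filtered and its viable cells enriched by a slow spin in Percoll before the scaffolds were filled. Nothing in the labels says that samples of a group came from separate animals, so the p-values reflect how much these particular samples varied, which may be technical. RNA was hybridized to Illumina RatRef-12 BeadChips, and 24 arrays gave 19 samples because 5 constructs were run on 2 arrays each, which were averaged. A probe's value here is its background-corrected, quantile-normalized log2 intensity, and a probe counts as detected where its deposited detection p was under 0.05. Fold changes are given as log2 fold change ± SE with an adjusted p from limma (Benjamini-Hochberg over 8825 genes).

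Cells enter division when D cyclins with Cdk4 or Cdk6, and then E cyclins with Cdk2, release E2F factors from their inhibitors. E2F switches on the helicase, clamp and nucleotide enzymes that copy the DNA, and cyclin A, cyclin B and Cdk1 then carry the cell into mitosis. Kinesins, Aurora kinases and checkpoint proteins run the spindle, and Cdk inhibitors such as Cdkn1a hold cells back at several of these steps. In adult rat liver most hepatocytes rest outside the cycle and can re-enter it after injury or loss of tissue. In samples of mixed cells, fewer cells of a type and less RNA per cell cannot be told apart.

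The promoters of 3 genes are shown because their letters carry sites known for cell cycle timing. Cdk1 and Prc1 stand for the mitotic genes and Mcm3 for the replication genes. RefSeq (GRCr8) gave 300 bases around the start of 34 of the 45 genes, from 250 before to 50 after. Capitals mark 3 kinds of site, each searched on both strands. A cell cycle homology region reads TTTGAA, and a variant of it that also counted reads TTCGAA. The letters of a CCAAT box are its name. An E2F-type site reads TTTCCCGC, TTTGGCGC, TTTCGCGC or TTCCCGCC, and such sites can overlap each other. Sequences run 5′ to 3′ along the gene.
Cdk1 promoter, chr20:19265043-19265342, plus strand: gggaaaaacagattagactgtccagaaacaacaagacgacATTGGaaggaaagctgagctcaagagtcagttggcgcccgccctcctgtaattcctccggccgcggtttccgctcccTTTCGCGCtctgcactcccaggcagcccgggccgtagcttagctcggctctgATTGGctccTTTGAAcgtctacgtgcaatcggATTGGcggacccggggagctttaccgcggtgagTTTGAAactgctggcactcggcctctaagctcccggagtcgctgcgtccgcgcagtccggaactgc
Prc1 promoter, chr1:143659231-143659530, plus strand: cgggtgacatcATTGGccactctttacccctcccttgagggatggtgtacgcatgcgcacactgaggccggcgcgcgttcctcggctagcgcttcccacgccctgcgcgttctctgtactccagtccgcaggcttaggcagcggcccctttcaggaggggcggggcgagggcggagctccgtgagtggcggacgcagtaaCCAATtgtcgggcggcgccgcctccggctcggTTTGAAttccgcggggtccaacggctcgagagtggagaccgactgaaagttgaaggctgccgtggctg
Mcm3 promoter, chr9:30733697-30733996, minus strand: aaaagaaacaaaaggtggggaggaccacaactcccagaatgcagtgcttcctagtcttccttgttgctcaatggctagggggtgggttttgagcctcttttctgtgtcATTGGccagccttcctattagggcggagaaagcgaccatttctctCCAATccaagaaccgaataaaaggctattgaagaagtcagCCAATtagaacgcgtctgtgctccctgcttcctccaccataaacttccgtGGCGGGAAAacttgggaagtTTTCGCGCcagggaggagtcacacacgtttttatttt
The Cdk1 window held the homology region at 2 places, beginning 72 and 16 bases before the start, with 3 CCAAT boxes and 1 E2F-type match. The Prc1 window held it at 1 place, 18 bases before the start, with 2 CCAAT boxes. The Mcm3 window held 3 E2F-type matches at or near the start, of which 2 overlap, with 3 CCAAT boxes. The 34 genes with a promoter sequence are not the same set as the 34 genes tested below, and they include the untested Mki67 and Top2a. Across the 34 promoters, 17 (50%) held the homology region, against 19.5% of 27457 rat promoters. A CCAAT box stood in 24 (70.6%), against 37.7%, and an E2F-type site in 9 (26.5%), against 3.35%. The windows of the mitotic genes Ccnb1, Bub1, Kif11, Kif20a and Aurka held no homology region. A match is a string of letters and does not show that a factor binds there.

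More of the 34 tested genes were higher than lower in the constructs against both comparison samples, and the counts were larger on days 15 and 28 than on day 2. Each count is read beside the share of all 8825 genes called the same way, because large shares of all genes were called in both directions. The small counts of each role group further down are read beside the same shares. A gene was called when its adjusted p in one limma fit over the 5 groups was under 0.05.
Against isolated hepatocytes, 13 genes were higher and 2 lower on day 2, where 32.6% of all genes were higher and 25.7% lower. On day 15, 21 were higher and 4 lower, against 31.5% and 31.2% of all genes. On day 28, 21 were higher and 2 lower, against 30.0% and 33.6%. The median log2 fold change of the 34 genes was 0.40, 0.86 and 0.95 on the 3 days in turn, against 0.02, -0.03 and -0.08 for all genes.
Against cadaveric liver, 11 genes were higher and 1 lower on day 2, where 34.5% of all genes were higher and 26.1% lower. On day 15, 18 were higher and 0 lower, against 31.4% and 26.5%, and on day 28, 19 were higher and 0 lower, against 29.5% and 27.6%. The medians were 0.13, 0.61 and 0.69 on the 3 days in turn, against 0.07, 0.03 and -0.02 for all genes. The constructs of each day were set against the same hepatocyte and liver samples, so these comparisons share their controls.
With the arrays centred on their medians in place of quantile normalization, the median of all genes moved to between 0.25 and 0.29 against both comparison samples. The 34 genes then gave 16, 28 and 28 higher and 0, 0 and 0 lower on days 2, 15 and 28 against hepatocytes. Against cadaveric liver they gave 15, 25 and 23 higher and 1, 0 and 0 lower. Of all genes called, 71.2% to 75.7% were then higher, against 47.2% to 56.9% with quantile normalization. The shares of all genes given above come from quantile normalization. The larger counts with median centring are therefore not read beside them, nor as a stronger result for the 34 genes.

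**Figure D1:**
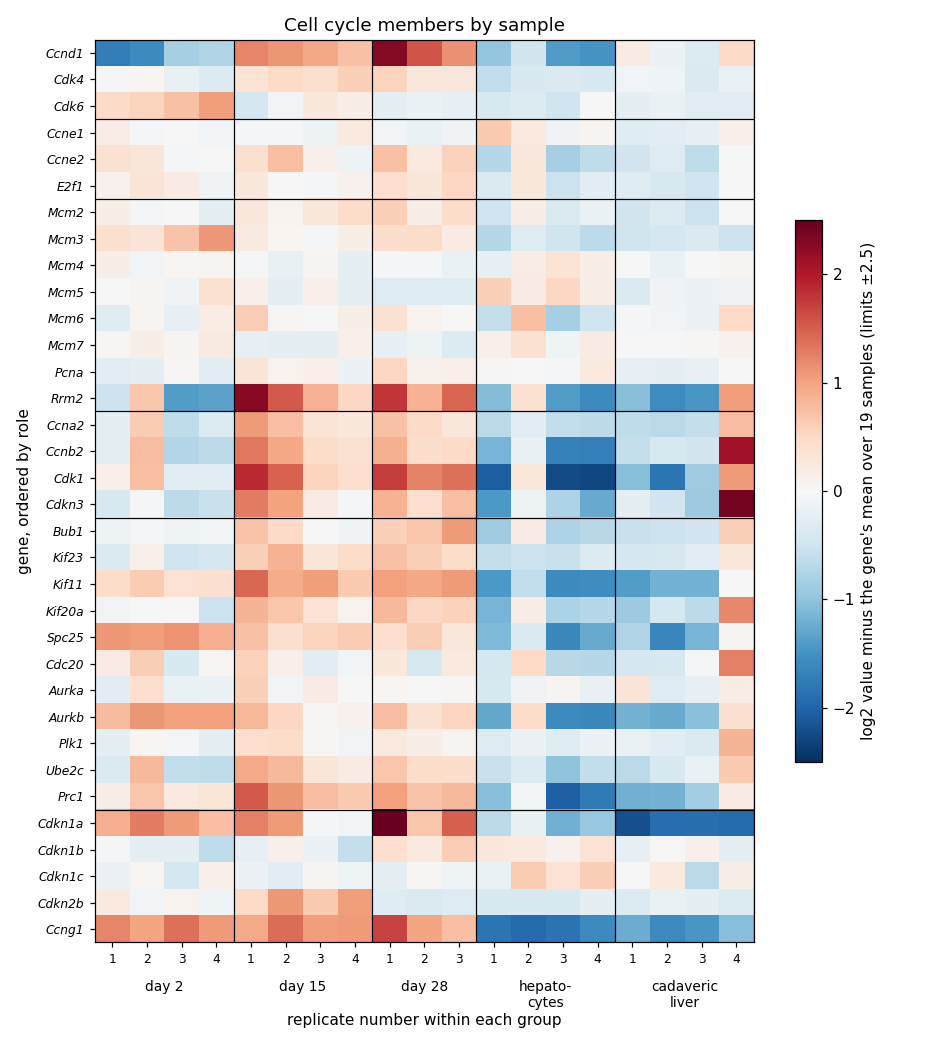
Log2 values of the 34 tested genes (rows, ordered by role, with lines between roles) in 19 samples (columns, grouped by day 2, day 15 and day 28 constructs, isolated hepatocytes and cadaveric liver), each minus the gene's mean over all samples. Hepatocyte sample 2 and cadaveric liver 4 stand out from their groups in the mitotic rows, and Ccng1 is higher in all 11 constructs than in the other 8 samples.

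In both comparison groups 1 sample stood above the rest in the mitotic genes. Cadaveric liver 4 was the highest of its 4 samples for 26 of 34 genes and for 14 of the 15 tested mitotic genes (cyclins A and B, Cdk1, Cdkn3 and the spindle group), while it was highest for 27.4% of all genes. Hepatocyte sample 2 was the highest of its group for 22 of 34 genes and 12 of 15 mitotic genes, against 24.6% of all genes. Among the constructs, day 2 construct 2, day 15 construct 1 and day 28 construct 1 led for 13, 13 and 12 of the 15 mitotic genes. Hepatocyte sample 2 and cadaveric liver 4 were then both left out, a choice made after the values were seen. The counts against hepatocytes were 19, 25 and 24 higher on days 2, 15 and 28, and 1, 2 and 2 lower. In that fit 31.4%, 30.5% and 29.2% of all genes were higher and 24.9%, 30.8% and 33.02% lower. Against cadaveric liver the counts were 14, 23 and 24 higher, and 1, 0 and 0 lower. There 33.4%, 30.5% and 28.997% of all genes were higher and 25.4%, 26.2% and 27.7% lower. Both samples were high in the mitotic genes, so the larger counts are not read as a stronger result for the 34 genes. All 19 samples are used in the values that follow unless a sentence says otherwise.

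Of the markers of other cell types, the stellate cell and fibroblast sum and the cholangiocyte sum were higher on days 15 and 28 than on day 2. The hepatocyte markers on the array, 9 of 9, were detected on every array of every group. Their summed intensity was lower in the constructs, at 121926 to 136809 on day 2, 145944 to 158211 on day 15 and 135859 to 150193 on day 28, against 175623 to 195741 in hepatocytes and 171812 to 181819 in cadaveric liver. Hnf4a, a transcription factor of hepatocytes, was lower than in hepatocytes by log2 fold changes of -0.97, -1.50 and -1.93 on days 2, 15 and 28, and Cps1, an enzyme of the urea cycle, by -1.73, -2.14 and -2.27 (adjusted p at most 7.03e-05), while Alb, Tf and Serpina1 were not called. The summed intensity of 7 stellate cell and fibroblast markers was 2048 to 2864 in day 2, 9619 to 44795 in day 15 and 27807 to 44798 in day 28 constructs, against 461 to 731 in hepatocytes and 4159 to 7637 in cadaveric liver. Of these markers Col1a1, Col3a1 and Dcn were undetected on day 2 and all 7 were detected on every array on day 28. On day 2 only Vim lay above every hepatocyte sample, with log2 values of 10.79 to 11.38 against 6.58 to 7.92. Col1a2 and Col3a1 lay below, at 5.38 to 7.35 against 7.66 to 8.33 and 4.39 to 4.60 against 5.39 to 6.02. Col1a1, Des, Dcn and Thy1 overlapped with hepatocytes on day 2. The sum of 4 cholangiocyte markers was 796 to 969 on day 2, 6492 to 11703 on day 15 and 8517 to 14233 on day 28, against 529 to 659 in hepatocytes and 675 to 1268 in cadaveric liver. On days 15 and 28 Spp1 had log2 values of 10.58 to 13.43, against 5.88 to 6.56 in cadaveric liver, and Epcam 11.34 to 12.29, against 8.78 to 9.62. Krt19 and Krt7 overlapped with cadaveric liver, at 7.96 to 9.14 against 7.24 to 8.45 and 4.74 to 5.50 against 4.71 to 5.12. The sum of 5 endothelial markers was 121 to 162 on day 2, 124 to 125 on day 15 and 127 to 130.1 on day 28, against 447 to 686 in hepatocytes and 1716 to 2045 in cadaveric liver. The sum of 5 Kupffer cell and macrophage markers was 144 to 259 on day 2, 116 to 182 on day 15 and 167 to 560 on day 28. It was 568 to 930 in hepatocytes and 3818 to 7437 in cadaveric liver. Of 7 leukocyte markers 5, Ptprc among them, were undetected on every construct array. Within day 15, constructs 1 and 2 had stellate and fibroblast sums of 32846 and 44795, and constructs 3 and 4 had 12526 and 9620. The part of these cell types in the cell cycle values was not tested.

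Of the D cyclin group 3 were tested, and 2 were higher than in hepatocytes on each of the 3 days. Ccnd1, the D cyclin that growth signals raise, was highest on days 15 and 28, as was Cdk4, and Cdk6 was highest on day 2. Ccnd1 had log2 values of 8.78, 8.91, 9.68 and 9.75 in day 2, 11.73, 11.61, 11.46 and 11.23 in day 15 and 12.80, 12.08 and 11.64 in day 28 constructs, against 9.54, 10.05, 9.09 and 9.03 in hepatocytes and 10.72, 10.36, 10.17 and 10.97 in cadaveric liver. All day 15 and day 28 constructs lay above every hepatocyte and liver sample. The log2 fold change of Ccnd1 was 2.74 ± 0.30 against hepatocytes on day 28 and 1.62 ± 0.30 against cadaveric liver (adjusted p = 3.10e-07 and 0.000167). On day 2 it was -1.28 ± 0.28 against cadaveric liver (adjusted p = 0.000643), and for hepatocytes against cadaveric liver it was -1.13 ± 0.28 (adjusted p = 0.00655).
Cdk4 had log2 values of 9.44, 9.53, 9.29 and 9.13 in day 2, 9.82, 9.97, 9.88 and 10.07 in day 15 and 10.03, 9.75 and 9.75 in day 28 constructs, against 8.86, 9.09, 9.12 and 9.10 in hepatocytes and 9.40, 9.36, 9.11 and 9.32 in cadaveric liver. Cdk4, the kinase that D cyclins activate, was above every comparison sample in all day 15 and 28 constructs. Its log2 fold change was 0.89 ± 0.11 against hepatocytes and 0.63 ± 0.11 against cadaveric liver on day 15 (adjusted p = 8.79e-07 and 5.34e-05). The day 2 value against hepatocytes, 0.31 ± 0.11 (adjusted p = 0.0183), was no longer called without day 2 construct 1 or 2 or hepatocyte sample 1.
Cdk6 had log2 values of 5.79, 5.87, 6.05 and 6.36 in day 2, 4.89, 5.24, 5.58 and 5.48 in day 15 and 5.06, 5.14 and 5.11 in day 28 constructs, against 4.92, 4.97, 4.82 and 5.30 in hepatocytes and 5.07, 5.15, 5.05 and 5.05 in cadaveric liver. Cdk6, its close relative with the same partners, was above every other sample in the 4 day 2 constructs. The log2 fold change on day 2 was 1.02 ± 0.14 against hepatocytes and 0.94 ± 0.14 against cadaveric liver (adjusted p = 7.41e-06 and 1.71e-05). Day 28 set against day 2 gave -0.91 ± 0.16 (adjusted p = 9.28e-05). Without day 15 construct 1, Cdk6 was also called higher on day 15 against both comparison samples, as it was against hepatocytes without hepatocyte sample 4 or with median centring. Ccnd2 was undetected on every array.

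**Figure D2:**
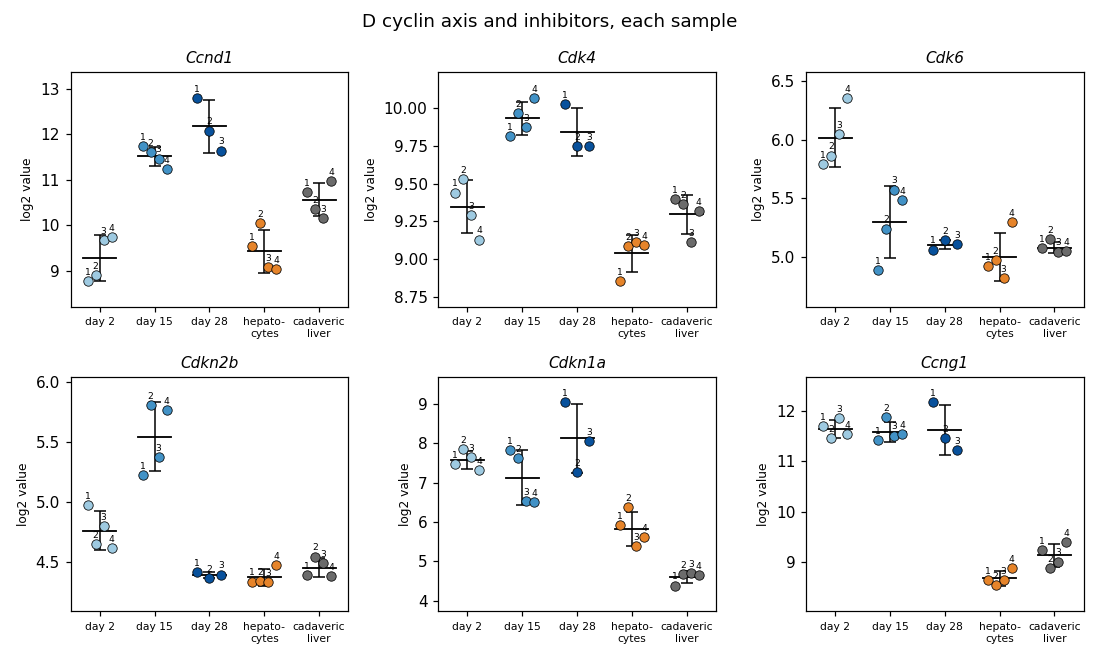
Log2 values (vertical axes) of Ccnd1, Cdk4, Cdk6, Cdkn2b, Cdkn1a and Ccng1 in each sample of the 5 groups (horizontal axes), with sample numbers, and the mean and SD of each group as lines. Ccnd1 and Cdk4 are high on days 15 and 28, Cdk6 on day 2, Cdkn2b on day 15, and Cdkn1a and Ccng1 in all constructs.

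Of 3 tested genes of the step from G1 to S, 2, 1 and 2 were higher than in hepatocytes on days 2, 15 and 28, and 2, 2 and 2 were higher than in cadaveric liver. Ccne2 had log2 values of 5.72, 5.64, 5.32 and 5.35 in day 2, 5.74, 6.09, 5.47 and 5.22 in day 15 and 6.07, 5.59 and 5.91 in day 28 constructs, against 4.63, 5.63, 4.52 and 4.72 in hepatocytes and 4.86, 5.02, 4.72 and 5.33 in cadaveric liver. Ccne2, an E cyclin, overlapped with hepatocyte sample 2 on every day and lay above the other 3 hepatocyte samples. Its log2 fold change on day 28 was 0.99 ± 0.24 against hepatocytes and 0.88 ± 0.24 against cadaveric liver (adjusted p = 0.00167 and 0.00457). No hepatocyte array but that of sample 2 detected Ccne2. Without that sample Ccne2 was at least 1.28-fold higher than in hepatocytes on day 2 and 1.39-fold on day 15. The day 2 calls of Ccne2 (adjusted p = 0.021 and 0.0492) were both lost without day 2 construct 1 or 2, and 1 of them without day 2 construct 4, hepatocyte sample 1, 3 or 4, or cadaveric liver 1, 2 or 3. Its day 15 call against cadaveric liver was lost without day 15 construct 2 or cadaveric liver 3.
E2f1 had log2 values of 5.18, 5.39, 5.28 and 4.99 in day 2, 5.33, 5.06, 5.03 and 5.19 in day 15 and 5.49, 5.37 and 5.58 in day 28 constructs, against 4.72, 5.34, 4.54 and 4.78 in hepatocytes and 4.76, 4.68, 4.57 and 5.08 in cadaveric liver. E2f1, the factor that switches on S phase genes, averaged highest on day 28, with a log2 fold change of 0.64 ± 0.16 against hepatocytes and 0.71 ± 0.16 against cadaveric liver (adjusted p = 0.00212 and 0.00101). Cadaveric liver 1, 2 and 3 lay below 4.92, the lowest log2 value detected in that group. E2f1 was kept only because constructs detected it, so its tests against both comparison samples are not independent of that choice. No hepatocyte array but that of sample 2 detected E2f1. Without that sample E2f1 was at least 1.04-fold higher than in hepatocytes on day 2 and 1.00-fold on day 15. The day 2 call of E2f1 against hepatocytes was lost without day 2 construct 1, 2 or 3 or hepatocyte sample 1, 3 or 4. Against cadaveric liver the day 2 call was lost without day 2 construct 2 or cadaveric liver 3, and the day 15 call without day 15 construct 1 or 4 or cadaveric liver 1, 2 or 3.
Ccne1 had log2 values of 6.05, 5.85, 5.86 and 5.80 in day 2, 5.85, 5.86, 5.75 and 6.12 in day 15 and 5.82, 5.70 and 5.78 in day 28 constructs, against 6.54, 6.12, 5.80 and 5.94 in hepatocytes and 5.58, 5.59, 5.68 and 6.01 in cadaveric liver. Ccne1, the other E cyclin, was called in none of the 10 comparisons, although with median centring it was higher on days 15 and 28 than in cadaveric liver and on day 15 than in hepatocytes. Without hepatocyte sample 3 or 4 it was lower on day 28 than in hepatocytes. It was higher in hepatocytes than in cadaveric liver without either of those samples or without cadaveric liver 4.

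Of 8 tested genes of replication and nucleotide supply, 1, 3 and 3 were higher and 0, 2 and 2 lower than in hepatocytes on days 2, 15 and 28, and 1, 3 and 4 were higher and 0 lower than in cadaveric liver. The 37.5% higher than in hepatocytes on days 15 and 28 was near the 31.5% and 30.0% of all genes. Rrm2 had log2 values of 5.68, 6.88, 4.81 and 4.87 in day 2, 8.48, 7.73, 7.07 and 6.71 in day 15 and 7.98, 7.06 and 7.65 in day 28 constructs, against 5.10, 6.57, 4.79 and 4.61 in hepatocytes and 5.13, 4.62, 4.75 and 7.25 in cadaveric liver. Rrm2, the small subunit of the enzyme that makes deoxynucleotides, was above every hepatocyte sample in all day 15 and 28 constructs, and above every cadaveric liver sample but number 4 in all of them. The Rrm2 log2 fold change was 2.30 ± 0.63 against hepatocytes and 2.13 ± 0.63 against cadaveric liver on day 28 (adjusted p = 0.00398 and 0.00766), and 2.01 ± 0.63 against day 2 (adjusted p = 0.0128). Without cadaveric liver 4 the values against cadaveric liver became 2.66 on day 15 and 2.73 on day 28. The call against day 2 on day 28 was lost without day 28 construct 1. No hepatocyte array but that of sample 2 detected Rrm2. Without that sample Rrm2 was at least 5.07-fold higher than in hepatocytes on day 15.
Mcm3 had log2 values of 5.51, 5.42, 5.82 and 6.18 in day 2, 5.33, 5.15, 5.07 and 5.25 in day 15 and 5.55, 5.55 and 5.30 in day 28 constructs, against 4.39, 4.77, 4.59 and 4.45 in hepatocytes and 4.60, 4.65, 4.74 and 4.59 in cadaveric liver. Mcm3, a subunit of the replicative helicase whose promoter is printed above, was undetected on every hepatocyte and cadaveric liver array and detected on every construct array. Its signal was at least 1.47-fold higher on day 2, 1.02-fold on day 15 and 1.23-fold on day 28 than in hepatocytes (adjusted p = 6.59e-07, 0.00046 and 3.09e-05). Against cadaveric liver it was at least 1.66-fold, 1.15-fold and 1.38-fold higher on the same days (adjusted p = 1.63e-06, 0.00184 and 0.000112). Such bounds set an undetected probe to the lowest log2 value called detected on its array. Mcm3 was kept only because constructs detected it, so its tests against both comparison samples are not independent of that choice. Mcm3 was higher on day 2 than on day 15, with a log2 fold change of -0.53 ± 0.14 for day 15 against day 2 (adjusted p = 0.00427).
Mcm2 had log2 values of 7.06, 6.87, 6.89 and 6.66 in day 2, 7.19, 7.0, 7.20 and 7.38 in day 15 and 7.51, 7.08 and 7.36 in day 28 constructs, against 6.42, 7.07, 6.54 and 6.74 in hepatocytes and 6.45, 6.58, 6.38 and 6.91 in cadaveric liver. Mcm2, another subunit, was higher on day 28 than in hepatocytes, with a log2 fold change of 0.62 ± 0.16, and than in cadaveric liver, with 0.74 ± 0.16 (adjusted p = 0.00246 and 0.000679).
Mcm5 had log2 values of 5.70, 5.78, 5.63 and 6.09 in day 2, 5.83, 5.46, 5.84 and 5.48 in day 15 and 5.39, 5.39 and 5.40 in day 28 constructs, against 6.30, 5.92, 6.24 and 5.87 in hepatocytes and 5.35, 5.63, 5.56 and 5.63 in cadaveric liver. Mcm5 went the other way, with log2 fold changes of -0.43 ± 0.13 on day 15 and -0.69 ± 0.14 on day 28 against hepatocytes (adjusted p = 0.00701 and 0.000275), but with median centring these were 0.05 and -0.17 and no call held. A further Mcm5 probe was dimmer and was not used. Mcm7 was lower than in hepatocytes on days 15 and 28 (-0.28 ± 0.10 and -0.37 ± 0.11, adjusted p = 0.0271 and 0.00781), but with median centring it was higher by 0.40 and 0.38, so its direction depends on the scaling. The day 15 call of Mcm7 was also lost without day 15 construct 1, 2 or 3 or hepatocyte sample 2 or 4. Mcm4 and Mcm6 were called in none of the 10 comparisons. Without hepatocyte sample 2, and with median centring, Mcm6 was higher than in hepatocytes on all 3 days, and with median centring Mcm4 was higher on day 28. Mcm4 was lower than in hepatocytes on days 15 and 28 without hepatocyte sample 1, and on day 15 without day 15 construct 3.
Pcna had log2 values of 10.50, 10.55, 10.81 and 10.52 in day 2, 11.11, 10.88, 10.91 and 10.64 in day 15 and 11.31, 10.90 and 10.92 in day 28 constructs, against 10.81, 10.80, 10.73 and 11.03 in hepatocytes and 10.58, 10.53, 10.60 and 10.78 in cadaveric liver. Pcna, the sliding clamp of the polymerase and a common proliferation marker, spanned a narrow range in every sample. On day 28 the Pcna log2 fold change was 0.42 ± 0.13 against cadaveric liver (adjusted p = 0.00985) and 0.45 ± 0.13 against day 2 (adjusted p = 0.00727), and both calls were lost without day 28 construct 1. Against hepatocytes it was 0.20 ± 0.13 on day 28, which did not pass the test (adjusted p = 0.183), and 0.42 with median centring, which did (adjusted p = 0.0275).

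The cyclins and kinase of the step from S phase to mitosis were higher in day 15 and day 28 constructs than in hepatocytes, all 4 of 4 on both days. Against cadaveric liver 2 of 4 passed the test on each of those days, and on day 2 only Cdk1 passed, against hepatocytes. Cdk1 had log2 values of 6.82, 7.45, 6.40 and 6.41 in day 2, 8.55, 8.17, 7.25 and 7.11 in day 15 and 8.42, 7.92 and 8.06 in day 28 constructs, against 4.62, 6.96, 4.45 and 4.41 in hepatocytes and 5.63, 4.87, 5.81 and 7.76 in cadaveric liver. Cdk1, the kinase that drives entry into mitosis, was above hepatocyte samples 1, 3 and 4 in all constructs, and hepatocyte sample 2 lay above 3 of the 4 day 2 constructs. The log2 fold change of Cdk1 against hepatocytes was 1.66 ± 0.57 on day 2, 2.66 ± 0.57 on day 15 and 3.03 ± 0.62 on day 28 (adjusted p = 0.0185, 0.000555 and 0.000324). Hepatocyte sample 2 was the only one of the 4 hepatocyte arrays that detected Cdk1. Without it the constructs of days 2, 15 and 28 were at least 3.07-fold, 6.13-fold and 7.92-fold higher than hepatocytes, and hepatocytes were at least 1.82-fold lower than cadaveric liver (adjusted p = 0.036). The day 2 call was lost without day 2 construct 2 or without hepatocyte sample 1, 3 or 4. Against cadaveric liver the log2 fold change was 1.75 ± 0.57 on day 15 and 2.12 ± 0.62 on day 28 (adjusted p = 0.0138 and 0.0068), and the day 15 call was lost without cadaveric liver 2. On day 2 it was 0.75 ± 0.57 (adjusted p = 0.274), and it was called higher without cadaveric liver 4.
Ccnb2 had log2 values of 6.18, 7.19, 5.68 and 5.76 in day 2, 7.72, 7.37, 6.87 and 6.78 in day 15 and 7.30, 6.84 and 6.89 in day 28 constructs, against 5.24, 6.22, 4.72 and 4.70 in hepatocytes and 5.82, 6.0, 5.96 and 8.51 in cadaveric liver. Ccnb2, a mitotic cyclin and partner of Cdk1, was highest of all in cadaveric liver 4, and the other 3 liver samples lay below every day 15 and 28 construct. Its log2 fold change on day 28 was 1.79 ± 0.54 against hepatocytes (adjusted p = 0.00751). Against cadaveric liver it was 0.44 ± 0.54 (adjusted p = 0.511), and without cadaveric liver 4 it was 1.26 on day 15 and 1.09 on day 28 (adjusted p = 0.00721 and 0.0253).
Cdkn3 had log2 values of 5.67, 6.03, 5.42 and 5.51 in day 2, 7.35, 7.07, 6.28 and 6.05 in day 15 and 6.94, 6.49 and 6.81 in day 28 constructs, against 4.63, 5.95, 5.29 and 4.81 in hepatocytes and 5.83, 5.58, 5.16 and 8.47 in cadaveric liver. Cdkn3, a phosphatase that acts on cyclin-dependent kinases, was likewise highest of all in cadaveric liver 4, and the other 3 liver samples lay below every day 15 and 28 construct. On day 28 the difference of Cdkn3 from hepatocytes was 1.58 ± 0.56 on the log2 scale (adjusted p = 0.0193), a call lost without day 28 construct 1 or hepatocyte sample 1, and its day 15 call was lost without day 15 construct 1. Against cadaveric liver it was 0.48 ± 0.56 (adjusted p = 0.478), and without cadaveric liver 4 it was 1.16 on day 15 and 1.22 on day 28 (adjusted p = 0.0048 and 0.00539).
Ccna2 had log2 values of 4.89, 5.78, 4.50 and 4.81 in day 2, 6.21, 5.89, 5.48 and 5.41 in day 15 and 5.87, 5.62 and 5.42 in day 28 constructs, against 4.46, 4.89, 4.52 and 4.49 in hepatocytes and 4.50, 4.46, 4.55 and 5.92 in cadaveric liver. Ccna2, the cyclin of S phase and early mitosis, was undetected on every hepatocyte array and detected on 1 of 4 cadaveric liver arrays, that of sample 4. It was at least 1.49-fold higher than in hepatocytes on day 15 and 1.38-fold on day 28 (adjusted p = 0.00257 and 0.0086). Ccna2 was kept only because day 15 and 28 samples detected it, so its tests against the other groups are not independent of that choice. Against cadaveric liver its calls (adjusted p = 0.0163 and 0.0467) were lost without day 15 construct 1 or cadaveric liver 1 or 2 on day 15, and without any 1 of the 3 day 28 constructs or cadaveric liver 1, 2 or 3 on day 28. Ccnb1 was detected on 1 array in all, a hepatocyte array.

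**Figure D3:**
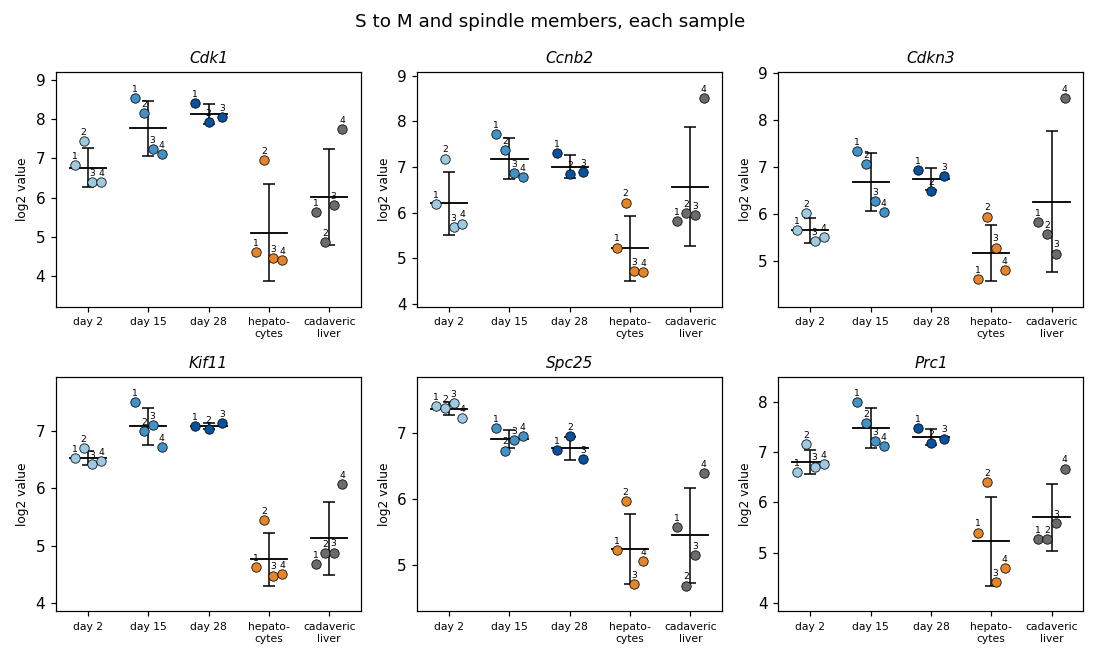
Log2 values (vertical axes) of Cdk1, Ccnb2, Cdkn3, Kif11, Spc25 and Prc1 in each sample of the 5 groups (horizontal axes), with sample numbers, and the mean and SD of each group as lines. Hepatocyte sample 2 and cadaveric liver 4 are the highest of their groups in all 6 panels, and Kif11, Spc25 and Prc1 are higher in every construct than in every hepatocyte sample.

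Of 11 tested genes of the spindle, the checkpoint and cytokinesis, 4, 8 and 8 were higher than in hepatocytes on days 2, 15 and 28, and 4, 6 and 6 were higher than in cadaveric liver. None was lower in either comparison. The 36.4% higher on day 2 was near the 32.6% of all genes against hepatocytes and 34.5% against cadaveric liver. Kif11 had log2 values of 6.53, 6.70, 6.43 and 6.48 in day 2, 7.50, 6.99, 7.11 and 6.72 in day 15 and 7.09, 7.04 and 7.14 in day 28 constructs, against 4.62, 5.45, 4.48 and 4.52 in hepatocytes and 4.68, 4.88, 4.88 and 6.07 in cadaveric liver. Kif11, the motor that pushes the spindle poles apart, was higher in every construct than in every comparison sample. The Kif11 log2 fold change was 1.76 ± 0.26, 2.31 ± 0.26 and 2.32 ± 0.28 against hepatocytes on days 2, 15 and 28 (adjusted p = 9.91e-06, 3.51e-07 and 8.29e-07). Against cadaveric liver it was 1.40 ± 0.26, 1.95 ± 0.26 and 1.96 ± 0.28 (adjusted p = 0.000111, 3.17e-06 and 7.86e-06). Apart from hepatocyte sample 2 and cadaveric liver 4, no comparison sample detected Kif11. It passed the filter of 3 samples only through the constructs, so its tests against both comparison samples are not independent of that choice. Its other probe was undetected on most arrays and was not used.
Spc25 had log2 values of 7.40, 7.37, 7.46 and 7.23 in day 2, 7.07, 6.73, 6.89 and 6.96 in day 15 and 6.75, 6.95 and 6.60 in day 28 constructs, against 5.23, 5.97, 4.72 and 5.06 in hepatocytes and 5.58, 4.70, 5.16 and 6.39 in cadaveric liver. Spc25, a part of the kinetochore complex that holds microtubules, was highest on day 2, and every construct was above every comparison sample. Its log2 fold change on day 2 was 2.12 ± 0.27 against hepatocytes and 1.91 ± 0.27 against cadaveric liver (adjusted p = 2.45e-06 and 7.78e-06). Day 28 set against day 2 gave -0.60 ± 0.30, which did not pass the test (adjusted p = 0.101).
Prc1 had log2 values of 6.61, 7.16, 6.71 and 6.77 in day 2, 7.99, 7.57, 7.23 and 7.12 in day 15 and 7.49, 7.18 and 7.27 in day 28 constructs, against 5.40, 6.40, 4.42 and 4.70 in hepatocytes and 5.27, 5.28, 5.59 and 6.68 in cadaveric liver. Prc1, which bundles microtubules at the midzone of the dividing cell, was above every hepatocyte sample in all constructs, and 1 day 2 construct lay below cadaveric liver 4. The log2 fold change on day 28 was 2.08 ± 0.38 against hepatocytes and 1.61 ± 0.38 against cadaveric liver (adjusted p = 0.000122 and 0.00154).
Kif23 had log2 values of 4.65, 5.13, 4.51 and 4.59 in day 2, 5.60, 5.88, 5.31 and 5.45 in day 15 and 5.73, 5.60 and 5.46 in day 28 constructs, against 4.41, 4.47, 4.44 and 4.65 in hepatocytes and 4.55, 4.61, 4.72 and 5.26 in cadaveric liver. Kif23, a motor of cytokinesis, was detected on every day 15 and 28 array, on 1 of 6 day 2 arrays and on no hepatocyte array. It was at least 1.31-fold higher than in hepatocytes on day 15 and 1.34-fold on day 28 (adjusted p = 1.56e-05 and 2.47e-05). Day 28 set against day 2 gave a log2 fold change of 0.88 ± 0.17 (adjusted p = 0.000411), with no overlap. No cadaveric liver array apart from that of sample 4 detected Kif23. The probe was kept only because day 15 and 28 samples detected it, so these tests are not independent of that choice.
Aurkb, the Aurora kinase of the centromere and the cleavage furrow, was higher than both comparison samples on all 3 days, with log2 fold changes between 1.14 and 1.99 and its highest level on day 2. Its day 15 call against cadaveric liver was lost without day 15 construct 1 or cadaveric liver 1 or 2. Bub1, a checkpoint kinase, had a log2 fold change of 1.32 ± 0.28 against hepatocytes and 1.03 ± 0.28 against cadaveric liver on day 28 (adjusted p = 0.000456 and 0.00418). Kif20a, a motor of late mitosis, and Ube2c, the enzyme that feeds the anaphase-promoting complex, were higher than in hepatocytes on days 15 and 28. Ube2c was at least 1.81-fold and 1.76-fold higher (adjusted p = 0.00204 and 0.00445), since no hepatocyte array detected it. Kif20a had log2 fold changes of 1.13 ± 0.35 and 1.26 ± 0.38 (adjusted p = 0.00971 and 0.00755). Cdc20, the activator of that complex, Aurka, the Aurora kinase of the spindle poles, and Plk1, the polo kinase, were called in none of the 10 comparisons. With hepatocyte sample 2 and cadaveric liver 4 both left out, Cdc20 was higher than in hepatocytes on all 3 days, and Plk1 was higher than in both comparison samples on days 15 and 28. No array left in the comparison groups detected Plk1, so its tests against them depend in part on the filter. Its construct values of 4.61 to 5.14 on those days lie near the lowest detected values on those arrays, 4.86 to 4.96. With median centring Cdc20 and Aurka were higher than in hepatocytes on days 15 and 28. No hepatocyte array but that of sample 2 detected Kif11, Bub1, Kif20a or Aurkb. Without that sample they were at least 2.60-fold, 1.23-fold, 1.41-fold and 4.06-fold higher than in hepatocytes on day 2, in that order.

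**Figure D4:**
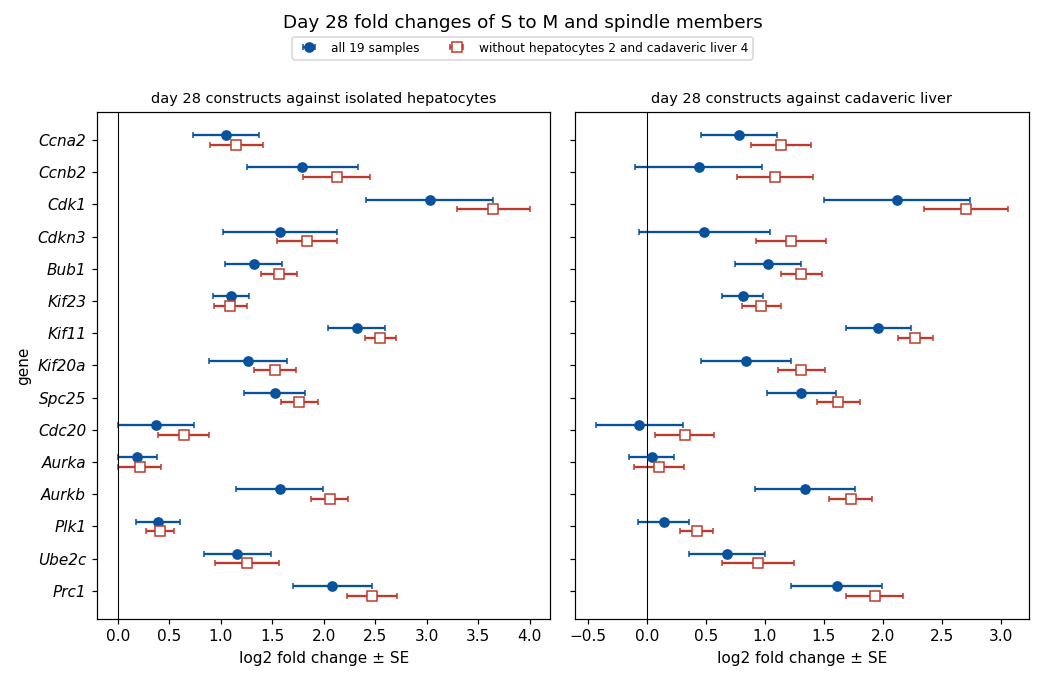
Log2 fold changes with their standard errors (horizontal axes) of the 15 tested mitotic genes (rows) in day 28 constructs against isolated hepatocytes (left) and cadaveric liver (right), from all 19 samples (filled circles) and without hepatocyte sample 2 and cadaveric liver 4 (open squares). Left-hand circles of Ccna2, Kif23, Plk1 and Ube2c, left-hand squares of these and of Cdk1, Bub1, Kif11, Kif20a and Aurkb, and right-hand squares of Ccna2, Kif23, Kif11 and Plk1 stand against a group that did not detect the gene, so they are fitted values and not bounds. Without these samples Ccnb2 stands at 1.09 against cadaveric liver, and with all samples at 0.44.

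Of 5 tested inhibitors and arrest genes, 3, 3 and 2 were higher and 2, 2 and 0 lower than in hepatocytes on days 2, 15 and 28, and 3, 3 and 3 were higher and 0 lower than in cadaveric liver. Ccng1 had log2 values of 11.70, 11.45, 11.86 and 11.53 in day 2, 11.43, 11.87, 11.51 and 11.54 in day 15 and 12.17, 11.46 and 11.23 in day 28 constructs, against 8.64, 8.55, 8.63 and 8.87 in hepatocytes and 9.23, 8.88, 9.01 and 9.40 in cadaveric liver. Ccng1, a cyclin induced by p53 that is linked to arrest, was above every comparison sample in all 11 constructs by a wide gap. The Ccng1 log2 fold change was 2.96 ± 0.17, 2.91 ± 0.17 and 2.94 ± 0.19 against hepatocytes on days 2, 15 and 28 (adjusted p = 7.74e-11, 7.57e-11 and 2.03e-10). Against cadaveric liver it was 2.51 ± 0.17, 2.46 ± 0.17 and 2.49 ± 0.19 (adjusted p = 5.92e-10, 8.50e-10 and 2.33e-09).
Cdkn1a had log2 values of 7.47, 7.85, 7.64 and 7.32 in day 2, 7.82, 7.63, 6.54 and 6.51 in day 15 and 9.04, 7.27 and 8.06 in day 28 constructs, against 5.92, 6.38, 5.38 and 5.62 in hepatocytes and 4.38, 4.67, 4.70 and 4.65 in cadaveric liver. Cdkn1a (p21), the Cdk inhibitor that p53 induces, was undetected on every cadaveric liver array and detected on every other array. Constructs were at least 5.96-fold higher than cadaveric liver on day 2, 4.38-fold on day 15 and 8.75-fold on day 28 (adjusted p = 3.85e-07, 3.34e-06 and 1.43e-07). Against hepatocytes the log2 fold change was 1.74 ± 0.33, 1.30 ± 0.33 and 2.30 ± 0.36 (adjusted p = 0.00019, 0.00245 and 2.16e-05). Hepatocytes were at least 1.78-fold higher than cadaveric liver (adjusted p = 0.0119), a call lost with median centring (adjusted p = 0.0673), without background correction (adjusted p = 0.0907) and without both hepatocyte sample 2 and cadaveric liver 4 (adjusted p = 0.0753). Within day 15, constructs 1 and 2 were above 3 and 4.
Cdkn2b had log2 values of 4.97, 4.65, 4.80 and 4.62 in day 2, 5.22, 5.80, 5.37 and 5.76 in day 15 and 4.41, 4.36 and 4.39 in day 28 constructs, against 4.33, 4.34, 4.33 and 4.47 in hepatocytes and 4.39, 4.54, 4.49 and 4.38 in cadaveric liver. Cdkn2b (p15), which blocks Cdk4 and Cdk6, was detected on all 5 day 15 arrays, on 1 of 6 day 2 arrays and on no array of the other groups. Day 15 constructs were at least 1.29-fold higher than hepatocytes and 1.46-fold higher than cadaveric liver (adjusted p = 9.67e-08 and 2.68e-07). The day 28 constructs were at least 1.58-fold lower than those of day 15 (adjusted p = 1.44e-05). The Cdkn2b probe was kept only because day 15 samples detected it, so these tests are not independent of that choice. The smaller day 2 differences passed the test, but only 1 day 2 array detected the probe, and with median centring they did not pass. The day 2 call against cadaveric liver was also lost without day 2 construct 1 or 3 or cadaveric liver 1 or 4 (adjusted p = 0.064 to 0.110).
Cdkn1b had log2 values of 7.98, 7.75, 7.78 and 7.37 in day 2, 7.80, 8.13, 7.85 and 7.40 in day 15 and 8.42, 8.24 and 8.62 in day 28 constructs, against 8.26, 8.25, 8.10 and 8.35 in hepatocytes and 7.78, 8.0, 8.12 and 7.76 in cadaveric liver. Cdkn1b (p27), an inhibitor of E and A cyclin kinases, was higher on day 28 than on the other days, with a log2 fold change of 0.71 ± 0.16 against day 2 and 0.63 ± 0.16 against day 15 (adjusted p = 0.0013 and 0.0181). The call against day 15 was lost without day 15 construct 4 or day 28 construct 1 or 3. On days 2 and 15 Cdkn1b was lower than in hepatocytes (-0.52 ± 0.15 and -0.45 ± 0.15), but with median centring the direction turned, to 0.04 and 0.16, with no call, and the day 15 call was also lost without day 15 construct 4. Against cadaveric liver it was 0.51 ± 0.16 on day 28 (adjusted p = 0.0114), a call lost without day 28 construct 3. On day 28 it was 0.19 ± 0.16 against hepatocytes (adjusted p = 0.328), and 0.84 with median centring (adjusted p = 0.000466). Cdkn1c (p57) was lower than in hepatocytes on days 2 and 15 (-0.46 ± 0.19 and -0.48 ± 0.19, adjusted p = 0.0488 and 0.0395), and neither call held with median centring or without hepatocyte sample 2, 3 or 4. Cdkn2c was detected on 1 array in all.

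In 6 comparisons, those of each day against hepatocytes and against cadaveric liver, 8 of the 34 genes were higher every time, and 0 lower every time. They were Ccne2, Mcm3, Kif11, Spc25, Aurkb, Prc1, Cdkn1a and Ccng1. Mcm3 and Kif11 were kept for testing only through the constructs, so their calls here are not independent of that choice. Of all genes, 13.7% were higher and 13.3% lower every time.
On days 15 and 28 against day 2, the share of the 34 genes called higher lay near that of all genes. On day 15 against day 2, 7 of 34 (20.6%) were higher and 2 (5.88%) lower, where 20.2% of all genes were higher and 24.5% lower. Those higher were Ccnd1, Cdk4, Rrm2, Ccna2, Kif23, Ube2c and Cdkn2b, and those lower were Cdk6 and Mcm3. The calls of Ccna2 and Ube2c were lost without day 2 construct 1, 3 or 4 or day 15 construct 1 or 2. On day 28 against day 2, 8 (23.5%) were higher and 4 (11.8%) lower, where 20.6% of all genes were higher and 30.9% lower. Those higher were Ccnd1, Cdk4, Mcm2, Pcna, Rrm2, Bub1, Kif23 and Cdkn1b, and those lower were Cdk6, Mcm5, Mcm7 and Cdkn2b. With median centring, Mcm5, Mcm7 and Pcna did not pass in this comparison. Single samples also decided some calls on day 28 against day 2. Mcm2 was lost without day 2 construct 4 or day 28 construct 1 or 3, Mcm5 without day 2 construct 4 or day 28 construct 1 or 2, Mcm7 and Bub1 without day 28 construct 3, and Cdkn2b without day 2 construct 1 or day 28 construct 2.
On day 28 against day 15, Cdkn1b was higher and Cdkn2b lower, and 5.46% of all genes were higher and 4.95% lower. The F test over the 3 days called 11 of 34 genes, where it called 53.7% of all genes. Between the comparison samples, hepatocytes were higher than cadaveric liver in Mcm5 and Cdkn1a, both calls lost with median centring, and lower in Ccnd1. Of all genes, 11.3% were higher and 11.3% lower.

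A wider list of 161 other cell cycle genes, of which 92 were tested, gave these counts. Against hepatocytes 36, 33 and 31 of the 92 were higher on days 2, 15 and 28, which is 39.1%, 35.9% and 33.7%. The shares of all genes were 32.6%, 31.5% and 30.0%. Lower were 15, 29 and 31, or 16.3%, 31.5% and 33.7%, where 25.7%, 31.2% and 33.6% of all genes were lower. Against cadaveric liver 40, 31 and 32 were higher (43.5%, 33.7% and 34.8%), where 34.5%, 31.4% and 29.5% of all genes were higher. Lower were 16, 20 and 18 (17.4%, 21.7% and 19.6%), where 26.1%, 26.5% and 27.6% of all genes were lower. On day 15 against day 2, 4 (4.35%) were higher and 27 (29.3%) lower, where 20.2% and 24.5% of all genes were. On day 28 against day 2, 10 (10.9%) were higher and 31 (33.7%) lower, where 20.6% and 30.9% of all genes were.
The 4 of these 92 genes with the lowest p over the 5 groups were Tfdp2, Mdm2, Rfc4 and Wee1. Mdm2, the p53 target that marks p53 for destruction, was higher than in hepatocytes and cadaveric liver on all 3 days, with a log2 fold change of 1.48 ± 0.13 and 1.66 ± 0.13 on day 2 and 0.76 ± 0.14 and 0.94 ± 0.14 on day 28. Wee1, the kinase that holds Cdk1 inactive, was higher, by log2 fold changes of 1.60 ± 0.19, 1.84 ± 0.19 and 1.59 ± 0.21 against hepatocytes on days 2, 15 and 28. Rfc4, a subunit of the loader of the Pcna clamp, was high on day 2 alone, with 1.25 ± 0.11 against hepatocytes, and its day 15 value was -1.14 ± 0.11 against day 2. Tfdp2, a DNA-binding partner of E2F factors, was lower than in hepatocytes, with log2 fold changes of -1.57 ± 0.16, -1.56 ± 0.16 and -1.57 ± 0.17 on the 3 days. For each of these values the adjusted p was at most 0.000163.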

How the data were processed

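RNA of 19 samples was hybridized to Illumina RatRef-12 BeadChips on 24 arrays. The authors background-corrected (neqc), quantile-normalized and log2-transformed the deposited log2 values, with limma. Its version was not given in the sources used here. Deposited probe intensity values and detection p-values came from a separate table, in which each array was found by rank correlation, since replicate numbers differed between the tables. Another normalized table held 24 columns that were not used, and 842 control probes were left out.

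Arrays of 1 construct were averaged, and they differed by a median of 0.139 log2 units over the measured genes. Probes were named from the platform annotation. Those detected (p under 0.05) in at least 3 samples were kept, and the brightest stood for its gene, which gave 8825 genes. A single fit over the 5 groups with no covariate (R 4.3.3, limma 3.58.1) gave moderated tests, Benjamini-Hochberg adjusted at 0.05, and an F test over days. Where no array of a group detected a probe, a fold is a bound: each array of that group was set to the higher of its own value and the lowest detected log2 value on it. Such a probe was kept through other groups, so its tests against that group depend in part on the filter. The script was tested on simulated data.

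The genes and lists were chosen with earlier results of these data known. Values per sample are given for a few preset genes and for up to 4 genes of each role with the lowest p over the 5 groups, and of the wider list for 4 genes by the same rule. Alternatives covered background correction, scaling, the filter, the probe rule, averaging, the fit and each replicate left out.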

Additional observations from a re-analysis of the deposited data

Results flagged for a closer look

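In groups of 4 samples, the gap of the highest or lowest sample to the next was compared with Dixon's limit. Of 136 such checks 18 passed it (13.2%), where chance gives about 1 in 20. Cadaveric liver 4 was the high sample in 7 of them and hepatocyte sample 2 in 5.
Cadaveric liver 4 stood at a log2 value of 5.92 for Ccna2 (next sample 4.55), 8.51 for Ccnb2 (next 6.0), 7.62 for Mcm6 (next 7.08), 6.13 for Bub1 (next 5.06), 6.07 for Kif11 (next 4.88), 6.58 for Aurkb (next 5.15) and 5.54 for Plk1 (next 4.52). Most of these genes act in mitosis. Hepatocyte sample 2 stood at 4.89 for Ccna2 (next 4.52), 6.96 for Cdk1 (next 4.62), 5.74 for Bub1 (next 4.84), 5.45 for Kif11 (next 4.62) and 6.64 for Aurkb (next 4.91).
The other checks concerned single genes. Day 2 construct 3 was high for Pcna at 10.81 (next 10.55), day 2 construct 4 was low for Kif20a at 5.25 (next 5.73), and day 15 construct 4 was high for Mcm7 at 7.39 (next 7.06). Hepatocyte sample 1 was low for Cdk4 at 8.86 (next 9.09), hepatocyte sample 4 was high for Cdkn2b at 4.47 (next 4.34), and cadaveric liver 1 was low for Cdkn1a at 4.38 (next 4.65). The Cdkn2b, Cdkn1a and hepatocyte Ccna2 values lie among undetected probes.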

How the results depend on the processing

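Of 2039 values under 29 alternatives, over the called results of 22 of the 23 genes whose values are given by sample (Ccne1 had none), 1935 kept their direction and call, 101 kept the direction and lost the call, and 3 reversed. The reversals came with median centring: Cdkn1b against hepatocytes was 0.041 on day 2 and 0.16 on day 15, and Mcm5 on day 15 was 0.047. Outside those genes, Mcm7 against hepatocytes also reversed, to 0.40 on day 15 and 0.38 on day 28. Median centring also gave 1 call for hepatocytes against cadaveric liver and 14 for day 15 against day 2. With the first array of each construct alone, day 28 against day 15 gave 1 call. With only the compared groups in the fit, day 15 against day 2 gave 16 calls, day 28 against day 15 gave 1, and the F test over days called 20 genes in place of 11. Without hepatocyte sample 2 and cadaveric liver 4, an alternative chosen after seeing the data, hepatocytes against cadaveric liver gave 5 calls. The cause was not tested.
With 1 replicate left out at a time, calls on days 2, 15 and 28 ranged from 11 to 18, 23 to 26 and 22 to 24 against hepatocytes, and from 10 to 13, 13 to 24 and 17 to 24 against cadaveric liver. They ranged from 7 to 11 for day 15 against day 2, 8 to 15 for day 28 against day 2, 1 to 3 for day 28 against day 15 and 4 to 6 for hepatocytes against cadaveric liver.
Samples of different groups with the same number had deviations from their group means that correlated at -0.276 to 0.271 (36 pairs, 5 over 0.1). Because replicate numbers differed between the deposited tables, this check cannot show whether samples shared an animal or cell preparation. The numbers were not taken as a pairing. With the replicate number as a block, 12 genes were higher and 2 lower on day 2 against hepatocytes, 22 and 4 on day 15, and 21 and 2 on day 28. Against cadaveric liver the block gave 11 and 1, 17 and 0, and 19 and 0. It gave 2 and 1 for hepatocytes against cadaveric liver, 6 and 3 for day 15 against day 2, 8 and 4 for day 28 against day 2, and 1 and 1 for day 28 against day 15. These counts were close to those without the block, which are given above beside the shares of all genes.
Between 42.1% and 50.7% of probes were detected per array, and dim genes have only bounds. The small number of samples limits precision.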
